A study of Mus musculus with 36 samples.

Results

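Hematopoietic stem cells (HSCs) that had lost Dnmt3a were compared directly with HSCs that had lost Tet2. The members are the 3 Dnmt3aKO HSC libraries (replicates 1, 2 and 4) and the 4 Tet2KO HSC libraries (replicates 1 to 4), chosen by genotype and cell type from the deposited table of read counts per transcript. They make up 7 of the 36 samples of the series. The 3 Control HSC libraries (replicates 2, 3 and 4) were used to say, for each transcript that separated the mutants, which mutant had left the Control level. Libraries of restricted progenitors (RPs), 4 Control and 4 Tet2KO, were compared with each other, genotype against genotype. They entered the fit from which the spread of every transcript was estimated.

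DNMT3A is an enzyme that places methyl groups on cytosines that were unmethylated before. TET2 oxidises methylated cytosine, a step towards its removal. The enzymes therefore act on the same mark in opposite directions, and both genes are often mutated in clonal expansions of blood stem cells. HSCs are the rare marrow cells that renew themselves and can form every blood lineage, and RPs lie further along towards a restricted fate.

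All animals were C57BL/6 mice aged 8 weeks that carried Cre recombinase driven by Vav, a gene active in blood-forming cells. Control animals carried Cre with wild-type Dnmt3a and Tet2, so Cre itself was common to every group. Tet2KO animals had Tet2 flanked by loxP sites on both alleles. The labels write the Dnmt3a allele as fl/fl or +, which does not settle whether every Dnmt3aKO pool was homozygous. HSCs were sorted as Lin-, cKit+, Sca1+ cells that were CD150+ and CD48-, and RPs for RNA as the CD48+ cells of that compartment without CD150. Each library came from several mice of both sexes pooled together, so the tests measure the spread between pools. The sources used here do not pair transcript identifiers with genes. For this reason loss of Dnmt3a or Tet2 and the markers of HSCs and of other blood cells were not checked, and no sequence or gene name is given.

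The 7 mutant libraries held 4625653 to 9366421 counts and the 3 Control HSC libraries 4949973 to 6453611. At equal depth, replicate 4 held the fewest transcripts in each HSC genotype. Reduced by calculation to 4625653 counts, Dnmt3aKO replicates 1, 2 and 4 held 38426, 40118 and 26602 transcripts. At that depth Tet2KO replicates 1 to 4 held 43886, 43169, 45847 and 34949, and Control replicates 2, 3 and 4 held 34887, 39164 and 32602. The mean was 35049 ± 7364 (SD, n = 3) in Dnmt3aKO and 41963 ± 4811 (n = 4) in Tet2KO HSCs, a difference within the spread between libraries (exact two-sided permutation test, p = 0.2, where the smallest possible p is 0.0286). Spearman correlations of log2 levels were 0.728 to 0.826 within a genotype and 0.683 to 0.81 between the 2 mutants. The mutants thus overlapped in this measure of likeness.

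Between the mutants, 37 transcripts differed, 12 higher and 25 lower in Dnmt3aKO than in Tet2KO HSCs. These are 0.138% of 26820 transcripts tested, with 0.0447% higher and 0.0932% lower. A transcript was called where the quasi-likelihood test of edgeR gave a p under 0.05 after Benjamini-Hochberg adjustment over every transcript tested. Levels are given as CPM, the counts of a transcript per 1000000 counts of its scaled library. In all 37 the libraries of the mutants did not overlap, as in 7.57% of transcripts tested, and 36 differed at least 2-fold. Below, the higher transcripts are counted from the largest fold change to the smallest, and so are the lower ones. The last called transcript had an adjusted p of 0.0496 and the first one outside 0.0539. Each mutant library bore on the count, which was 18 without Dnmt3aKO replicate 1, 20 without replicate 2 and 9 without replicate 4. It was 15, 11, 17 and 63 without Tet2KO replicates 1, 2, 3 and 4.

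**Figure D1:**
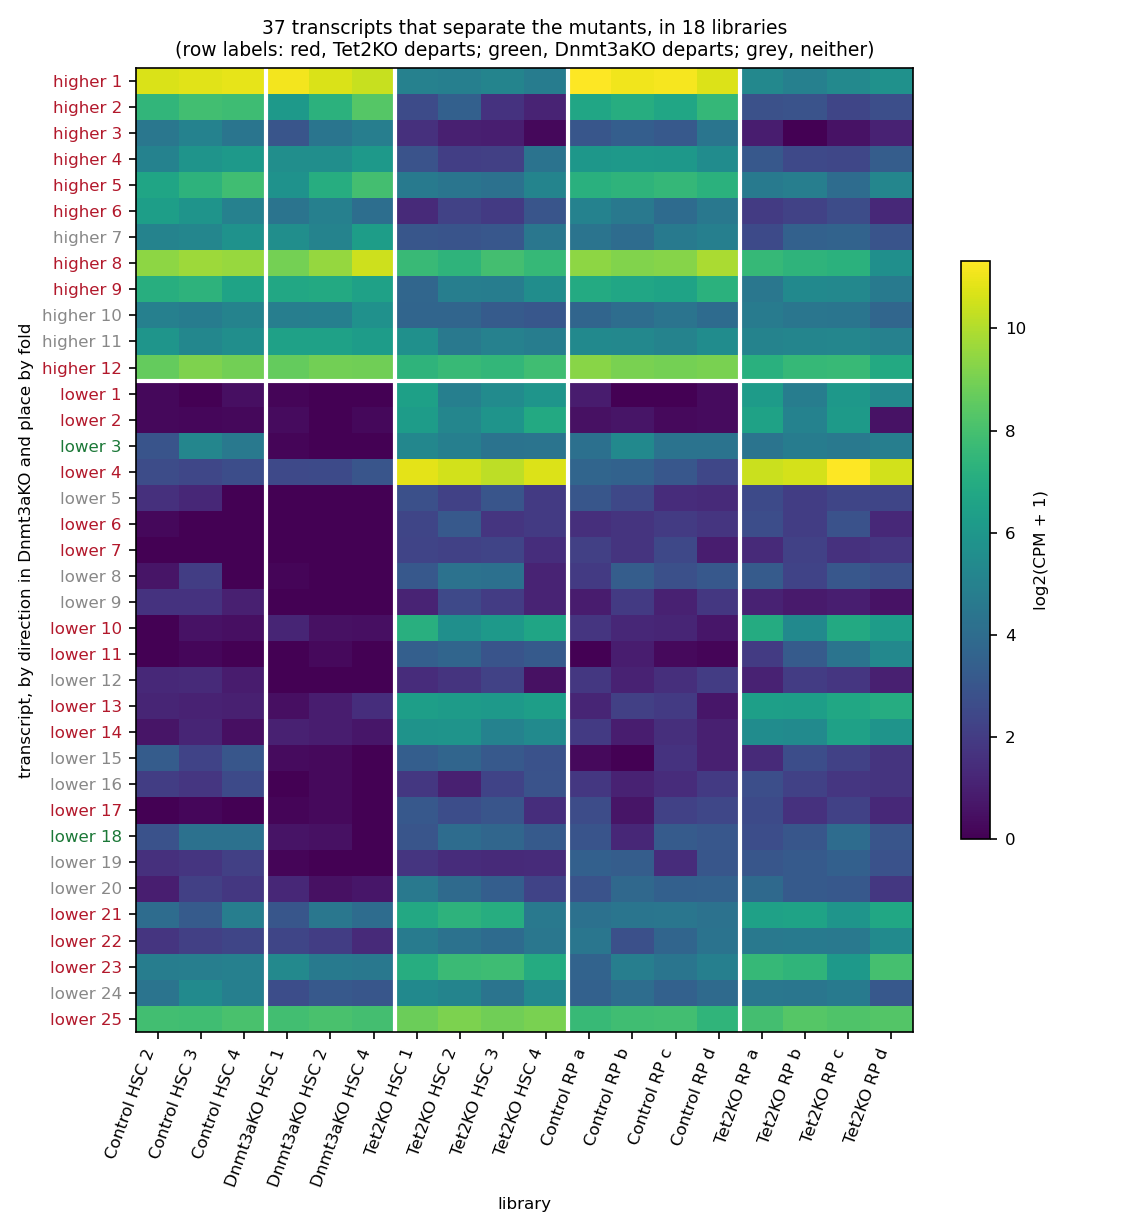
Level of each of the 37 transcripts (rows) in each of the 18 libraries (columns) as log2(CPM + 1), with white lines between groups and between the 12 higher and 25 lower transcripts. Most red rows change colour between the Tet2KO libraries and all others, in HSCs and in RPs, and the green rows are dark in the 3 Dnmt3aKO libraries.

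Tet2KO was the mutant that left the Control level in 23 of the 37 transcripts, and Dnmt3aKO in 2. A mutant was said to depart where its own difference from Control HSCs passed the same threshold over all transcripts. Across all transcripts 0.198% passed for Tet2KO and 0.0149% for Dnmt3aKO. The comparisons with Control share libraries with the comparison that chose the 37, so these counts sort the transcripts and do not test them anew. In 12 transcripts neither mutant passed, and in 0 did both pass. Dnmt3aKO had 3 libraries and Tet2KO 4, and missing the threshold does not show that a mutant was like Control. With Control replicates 2, 3 and 4 left out in turn, neither passed in 25, 14 and 28 transcripts and Tet2KO departed in 14, 12 and 16. Without Tet2KO replicate 4 these numbers were 32 and 30. Leaving out any other mutant library kept Tet2KO as the larger class. At an unadjusted p under 0.05 Tet2KO alone departed in 25, Dnmt3aKO alone in 9 and both in 3, which accounts for all 37, and DESeq2 called both departures in 3 of its own list. Over all transcripts 11.2% for Tet2KO and 7.75% for Dnmt3aKO had such a p against Control.

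**Figure D2:**
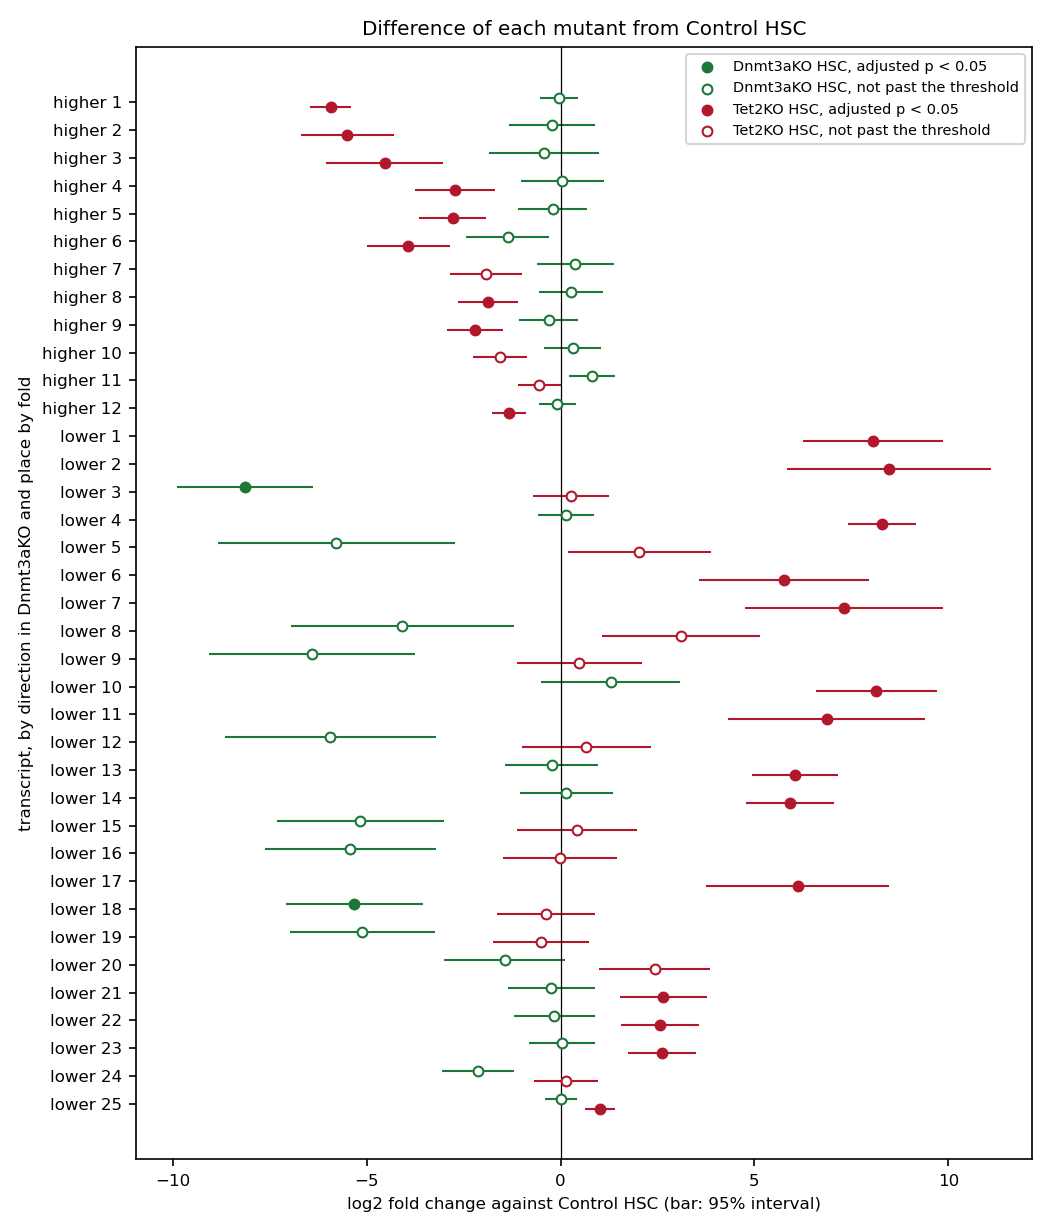
Log2 fold change of Dnmt3aKO HSCs (green) and Tet2KO HSCs (red) against Control HSCs for each of the 37 transcripts, with 95% intervals; filled points passed the threshold. Green points are left out for 6 transcripts with at most 3 counts over both the Dnmt3aKO and the Control libraries. In 23 rows the filled point is red, and in 2 it is green.

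Among the 12 transcripts higher in Dnmt3aKO, 9 fell in Tet2KO HSCs against Control HSCs, and in none of the 9 did Dnmt3aKO pass the threshold against Control. Over all transcripts 0.0634% fell in Tet2KO HSCs. ENSMUST00000029722.6 was at 1668, 1801 and 1903 CPM in Control HSCs and at 2224, 1656 and 1330 CPM in Dnmt3aKO HSCs. In the 4 Tet2KO libraries it was at 30.4, 28.6, 33.1 and 25.8 CPM. Control and Dnmt3aKO libraries overlapped, and every Tet2KO library lay far below them. The log2 fold change of Dnmt3aKO over Tet2KO was 5.88 (SE 0.25, adjusted p = 5.53e-11). Dnmt3aKO differed from Control by -0.04 on the log2 scale with a 95% interval of -0.53 to 0.44.

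ENSMUST00000161230.2 was at 171.9, 240.7 and 226.4 CPM in Control HSCs, at 69.4, 152.2 and 324.4 CPM in Dnmt3aKO HSCs and at 5.04, 10.2, 2.12 and 1.21 CPM in Tet2KO HSCs. The Dnmt3aKO libraries spread on either side of the Control libraries, and the Tet2KO libraries were all lower than both. The log2 fold change between the mutants was 5.27 (SE 0.57, adjusted p = 6.27e-05). Against Control, Tet2KO fell by 5.50 on the log2 scale (adjusted p = 4.91e-05), and the interval for Dnmt3aKO was -1.33 to 0.88. In a fit of only the 2 mutants the difference between them was not called, and over the alternatives its adjusted p reached 0.136.

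The other 7 of these 9 transcripts also fell in Tet2KO HSCs, with log2 fold changes against Control from -4.53 to -1.33. Their mean levels in Tet2KO HSCs ran from 1.03 CPM for the third higher transcript to 202.3 CPM for the eighth. The eighth was at 673.2, 802 and 755.4 CPM in Control, 493.2, 751.2 and 1426 CPM in Dnmt3aKO and 206.5, 164.7, 247.1 and 190.8 CPM in Tet2KO HSCs. Its Dnmt3aKO libraries reached from below to above all Control libraries. The twelfth had the smallest fold of the 9, at 485.2 ± 79.3 CPM (SD, n = 3) in Control, 455.5 ± 44.4 CPM (n = 3) in Dnmt3aKO and 192.4 ± 30.2 CPM (n = 4) in Tet2KO HSCs. The mutants differed by 1.24 on the log2 scale (SE 0.21, adjusted p = 0.0229).

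The sixth higher transcript was the one of the 9 in which the Dnmt3aKO libraries, too, did not overlap the Control libraries. It was at 80.7, 56.6 and 30.8 CPM in Control, at 19.3, 30 and 16.1 CPM in Dnmt3aKO and at 1.51, 3.75, 2.77 and 6.85 CPM in Tet2KO HSCs. The 3 groups did not overlap. Tet2KO fell by 3.92 on the log2 scale against Control (adjusted p = 9.03e-04), and Dnmt3aKO differed by -1.36 (unadjusted p = 0.0154, adjusted p = 0.526).

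Of the 25 transcripts lower in Dnmt3aKO, 14 rose in Tet2KO HSCs against Control, from levels that were near 0 in several of them. Over all transcripts 0.134% rose. In the twenty-first lower transcript Tet2KO replicate 4 was at 22.8 CPM, within the Control range of 8.45 to 27.4 CPM. Tet2KO replicates 1, 2 and 3 were at 113.3, 157.2 and 132.2 CPM. Its call between the mutants was lost in 9 of 16 alternatives. ENSMUST00000183478.1 had 3 counts over the 3 Control libraries and 1 over the 3 Dnmt3aKO libraries. In Tet2KO HSCs it was at 84.5, 28.8, 43.7 and 59.8 CPM. No Control HSC or Dnmt3aKO HSC library passed 0.4 CPM. The ratio of Tet2KO to Dnmt3aKO was 884.7 (95% counting interval 158.5 to 34965, adjusted p = 2.69e-05) and that of Tet2KO to Control 282.9 (interval 96.6 to 1373, adjusted p = 5.98e-05). These intervals come from counts pooled over the libraries of each group, so they hold counting error alone and leave out the spread between libraries. Reads also carried no molecular identifiers and need not be separate molecules, so even the counting error may be understated.

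In 6 of the 14, the first among them, the Control and the Dnmt3aKO libraries each held at most 3 counts in all, so no fold between these groups is given. The second lower transcript was at 74.9, 36.1, 56.4 and 117.2 CPM in Tet2KO HSCs, with 3 counts over each of the other genotypes. Its ratio between the mutants was 378 (interval 129.1 to 1834, adjusted p = 0.00527), and the call was lost without Dnmt3aKO replicate 4 (adjusted p = 0.0541). The sixth and seventh lower transcripts had no count in Dnmt3aKO HSCs. They were at 4.35 ± 2.54 and 3.35 ± 1.06 CPM in Tet2KO HSCs (SD, n = 4). These means were 25.5 and 19.6 times a floor set at 3 counts in the Dnmt3aKO libraries together. Their calls between the mutants were lost in 7 of 16 and in 10 of 15 alternatives.

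The most abundant of the 14 was the fourth lower transcript, at 1873, 1499, 1187 and 1683 CPM in Tet2KO HSCs. It was at 4.63, 4.89 and 6.88 CPM in Dnmt3aKO and at 5.13, 4.38 and 5.40 CPM in Control HSCs. Dnmt3aKO and Control libraries overlapped within a narrow band. The log2 fold change between the mutants was -8.16 (SE 0.42, adjusted p = 6.65e-10), and the interval for Dnmt3aKO against Control was -0.59 to 0.86. Summed with ENSMUST00000029722.6, which moved the other way, the level was 1796 ± 118 CPM in Control, 1742 ± 451 CPM in Dnmt3aKO and 1590 ± 291 CPM in Tet2KO HSCs. The summed levels overlapped among the 3 genotypes, at 1220 CPM at the lowest and 2229 CPM at the highest. Whether these transcripts share sequence, so that reads could be counted on either, was not tested.

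The tenth, the thirteenth and the fourteenth lower transcripts were likewise at most 1.77 CPM in every Control HSC and Dnmt3aKO HSC library. Their means in Tet2KO HSCs were 89.5 ± 39.9, 75.9 ± 5.5 and 46.6 ± 12.1 CPM (SD, n = 4). The thirteenth varied least among the Tet2KO libraries, from 69.0 to 81.3 CPM. At the other end, the last lower transcript was well expressed in every group, at 245.3 ± 19.7 CPM in Control, 248.7 ± 15.6 CPM in Dnmt3aKO and 496.8 ± 51 CPM in Tet2KO HSCs. Its log2 fold change between the mutants was -0.999 (SE 0.19, adjusted p = 0.0358), with an interval for Dnmt3aKO against Control of -0.39 to 0.43. That call was lost in 13 of 16 alternatives.

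**Figure D3:**
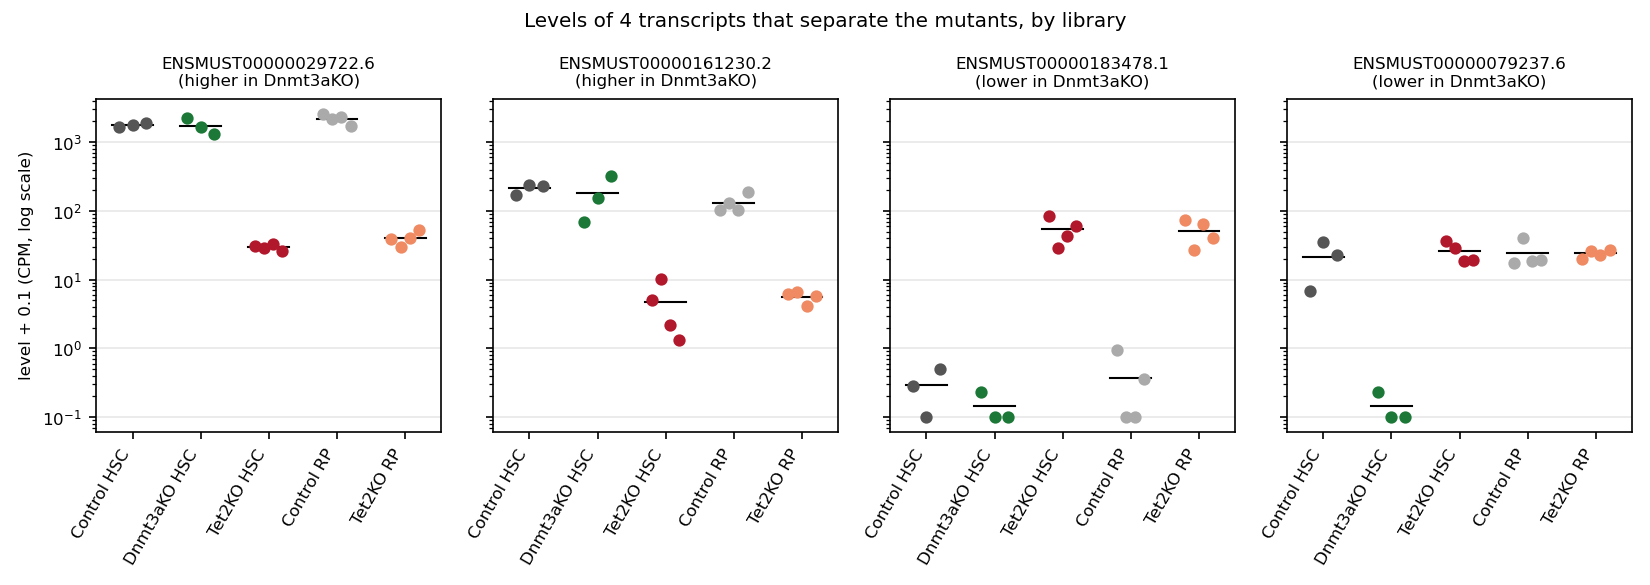
Level + 0.1 in CPM on a log axis for the 4 transcripts named by identifier; each point is a library and the line is the group mean. The first 3 panels separate Tet2KO libraries from all others, and in the last panel the 3 Dnmt3aKO libraries lie below the 15 others.

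Dnmt3aKO departed from Control in 2 transcripts, both lower, and in neither did Tet2KO pass the threshold. Over all transcripts 0.0112% were called lower in Dnmt3aKO than in Control HSCs. Only 1 count of ENSMUST00000079237.6 was found in the Dnmt3aKO libraries together. It was at 6.77, 35.4 and 22.6 CPM in Control and at 36.6, 28.7, 18.8 and 19.3 CPM in Tet2KO HSCs. Control and Tet2KO libraries overlapped, and the 3 Dnmt3aKO libraries lay below all of them. They also lay below every RP library, as in 0.433% of transcripts tested. The ratio of Tet2KO to Dnmt3aKO was 441.7 (95% counting interval 79 to 17471, adjusted p = 1.87e-05) and that of Control to Dnmt3aKO 391.9 (adjusted p = 2.24e-04). Tet2KO differed from Control by 0.26 on the log2 scale, with a 95% interval of -0.72 to 1.24. In the 8 RP libraries, none of which lacked Dnmt3a, the transcript was at 17.3 to 40.7 CPM.

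The eighteenth lower transcript was the other one. It was at 0.514, 0.425 and 0 CPM in Dnmt3aKO, at 6.23, 17.7 and 17.8 CPM in Control and at 6.88, 15, 12.3 and 8.26 CPM in Tet2KO HSCs. Dnmt3aKO again lay below every other HSC library. The log2 fold change was -4.93 against Tet2KO (SE 0.82, adjusted p = 0.0178) and -5.32 against Control (SE 0.84, adjusted p = 0.0429). The difference between the mutants lost its call in 8 of 16 alternatives, while that of ENSMUST00000079237.6 was kept in 16 of 16. The departures of Dnmt3aKO from Control were less stable: over all transcripts 4 passed, but 0 in a fit of the 10 HSC libraries alone, where 1072 had an unadjusted p under 0.05 in edgeR. DESeq2 called 174 over all 18 libraries. By edgeR the count was 1 without Control replicate 3 and 2 without Dnmt3aKO replicate 4.

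In the 12 transcripts where neither mutant passed against Control, the Control level gave 3 patterns. In 6 lower transcripts (the ninth, twelfth, fifteenth, sixteenth, nineteenth and twenty-fourth) Dnmt3aKO had an unadjusted p under 0.05 against Control and did not overlap it, and Tet2KO had neither. Over all transcripts 3.87% had such a p and were lower in Dnmt3aKO, and 4.09% were lower without overlap. The twenty-fourth was the most abundant of these, at 19.6, 41.6 and 28.6 CPM in Control, 5.40, 7.87 and 7.28 CPM in Dnmt3aKO and 40.3, 33.3, 19.4 and 39.1 CPM in Tet2KO HSCs. Its log2 difference from Control was -2.13 in Dnmt3aKO (interval -3.05 to -1.21, adjusted p = 0.138) and 0.14 in Tet2KO (interval -0.68 to 0.95). The other 5 had means of 1.28 to 6.69 CPM in Control and 0 to 3 counts over the Dnmt3aKO libraries.

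The fifth, eighth and twentieth lower transcripts had Control between the mutants. The eighth was at 0.549, 3.13 and 0 CPM in Control, had 1 count over the Dnmt3aKO libraries and was at 7.56, 18, 17 and 1.21 CPM in Tet2KO HSCs. Here Tet2KO replicate 4 lay within the Control range. Among the higher transcripts, the seventh and the tenth were low in Tet2KO (adjusted p against Control 0.0957 and 0.0659). The eleventh was the one of the 12 higher transcripts in which Dnmt3aKO lay above every Control library, at 87.6, 88.5 and 74.7 CPM against 58.8, 36.6 and 47.8 CPM (log2 difference 0.81, unadjusted p = 0.0113, adjusted p = 0.508). In Tet2KO HSCs it was at 50.5, 23.2, 30.4 and 26.6 CPM, overlapping Control.

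Summed over the 8 lower transcripts with such a p for Dnmt3aKO only, the level was 6.42, 8.72 and 7.28 CPM in Dnmt3aKO replicates 1, 2 and 4. It was 50.4 to 107.2 CPM in Control and 70.6 to 101.1 CPM in Tet2KO HSCs. These 8 were chosen for low values in Dnmt3aKO, so the sum describes them. Many faint transcripts were lower in Dnmt3aKO than in Tet2KO HSCs: the median log2 fold change was -0.87 in the least abundant of 5 equal groups of transcripts, 0.11 in the most abundant and -0.13 over all. Against Control HSCs, the median in the least abundant group was 0 for Dnmt3aKO and 0.85 for Tet2KO. A faint transcript could pass the filter on low counts through a single group in which it was high. These medians therefore do not show which mutant lay away from Control. The part of the number of detected transcripts in the faint calls was not tested.

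The Tet2 difference was also read between RP libraries, which are other samples but share the filter and the estimate of spread with the HSC comparisons. Of the 23 transcripts in which Tet2KO departed in HSCs, 17 changed the same way between Tet2KO and Control RPs, where 0.134% of all transcripts passed, and 0 passed the opposite way. All 9 that fell in Tet2KO HSCs also fell in Tet2KO RPs, and 8 of the 14 that rose also rose there, beside 0.041% of all transcripts that fell and 0.0932% that rose. With HSCs and RPs fitted apart, Tet2KO departed in 10 of 11 transcripts that separated the mutants, 9 of them among the 23. Of these 10, 9 were tested in the RP fit. There 8 changed the same way and 0 the opposite way, where 0.42% of transcripts passed. Summed over the 9, the level was 296 to 467 CPM in Tet2KO RPs and 3745 to 4364 CPM in Control RPs, beside 451 to 556 CPM in Tet2KO HSCs. Tet2KO libraries of both cell types were separated from all 10 other libraries in 16 of the 23, as in 0.224% of transcripts tested. The 23 were chosen for a difference in HSCs, where 22 of them already separated Tet2KO from the other HSC libraries. The HSC part of this separation is therefore no new evidence, and the share over all transcripts is not a like comparison. ENSMUST00000183478.1 was at 73.8, 27, 65.3 and 39.8 CPM in Tet2KO RPs and at most 0.845 CPM in Control RPs, and the adjusted p of that difference was 1.79e-05. For the second lower transcript, 1 Tet2KO RP library, d, held 0.487 CPM, and Control RPs ranged from 0.211 to 0.57 CPM. For the 12 transcripts where neither mutant departed, 0 passed in RPs by edgeR. There 2 had an unadjusted p under 0.05, as did 3.82% of all transcripts. By DESeq2 0 passed in the direction in which Tet2KO differed from Dnmt3aKO in HSCs, and the opposite direction was not counted. No Dnmt3aKO RP library was analysed here, so the Dnmt3a side has no such reading.

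The 6 transcripts that rose in Tet2KO HSCs and did not pass in RPs were the sixth, the seventh, the seventeenth, the twenty-first, the twenty-second and the last lower ones. For the sixth, seventh and seventeenth, Control RPs held the transcript too, at means of 2.39, 2.75 and 3.44 CPM, although Control HSCs had 0 or 1 count in all. Tet2KO RPs were at 4.03, 2.39 and 3.01 CPM, overlapping Control RPs. The other 3 were higher in every Tet2KO RP library than in any Control RP library, without passing the threshold. Their log2 differences in RPs were 2.18 for the twenty-first (adjusted p = 0.0925), 0.96 for the twenty-second (unadjusted p = 0.0292) and 0.50 for the last (unadjusted p = 0.00855). A test of whether the Tet2 difference differs between RPs and HSCs passed for 0 transcripts over all tested in edgeR, where 1435 had an unadjusted p under 0.05. The sixth, the seventh and the seventeenth had unadjusted p values of 6.98e-04, 6.29e-05 and 1.24e-04 (adjusted p 0.825, 0.64 and 0.79). Control RP libraries that reached the depth used above held 42435 to 43652 transcripts, more than any Control HSC library, and the part of this in these 3 transcripts was not tested.

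**Figure D4:**
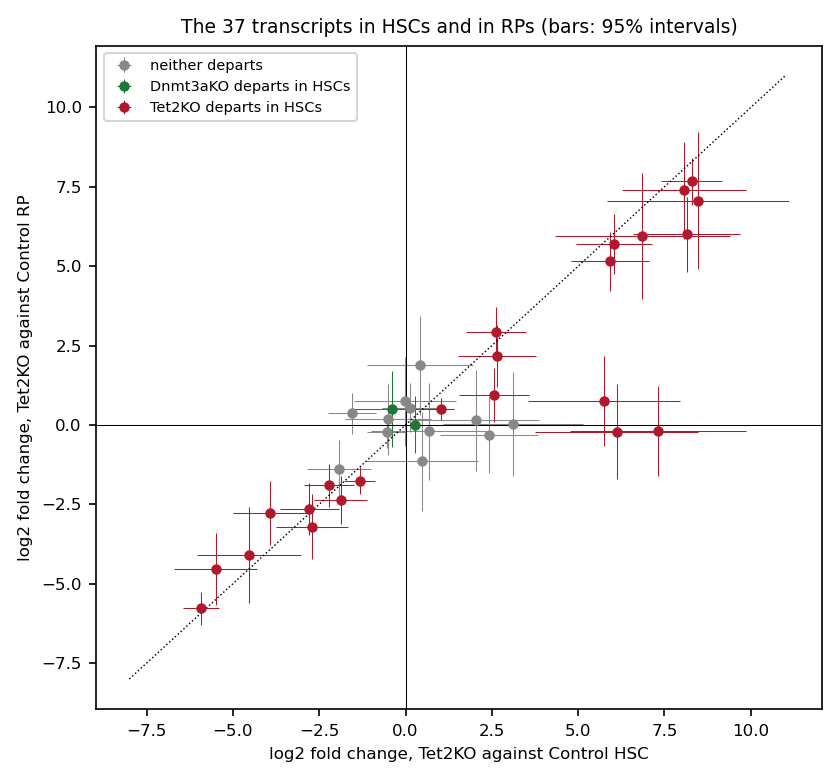
Log2 fold change of Tet2KO against Control in HSCs (x axis) and in RPs (y axis) for the 37 transcripts, with 95% intervals; the axes share no library, and the dotted line marks equal values. Of the 23 red points, 17 passed the threshold in RPs, and 3 red points lie at -0.21 to 0.74 on the y axis and at 5.75 to 7.31 on the x axis.

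Without the 3 HSC libraries numbered 4, 35 transcripts separated the mutants, 14 higher and 21 lower, of which 19 were among the 37. Tet2KO departed in 21, Dnmt3aKO in 2 and neither in 12. The calls of the 4 transcripts named by identifier were kept, with adjusted p values of 9.30e-10 for ENSMUST00000029722.6, 3.87e-04 for ENSMUST00000161230.2 and 5.63e-04 for both ENSMUST00000183478.1 and ENSMUST00000079237.6. The number of transcripts in which Tet2KO departed was 14 and 12 without Control replicates 2 and 3, and 13, 10 and 8 without Dnmt3aKO replicates 1, 2 and 4. It was 11, 9 and 13 without Tet2KO replicates 1, 2 and 3. Of the 37, 7 were called between the mutants in every one of 16 alternatives. In 6 of these Tet2KO departed, namely ENSMUST00000029722.6, ENSMUST00000183478.1 and the fourth, the tenth, the thirteenth and the fourteenth lower transcripts, and all 6 passed in RPs. The remaining one was ENSMUST00000079237.6, in which Dnmt3aKO departed in the fit of 18 libraries. Its departure from Control was not kept throughout: with the 10 HSC libraries only, 0 transcripts passed for Dnmt3aKO against Control.

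**Figure D5:**
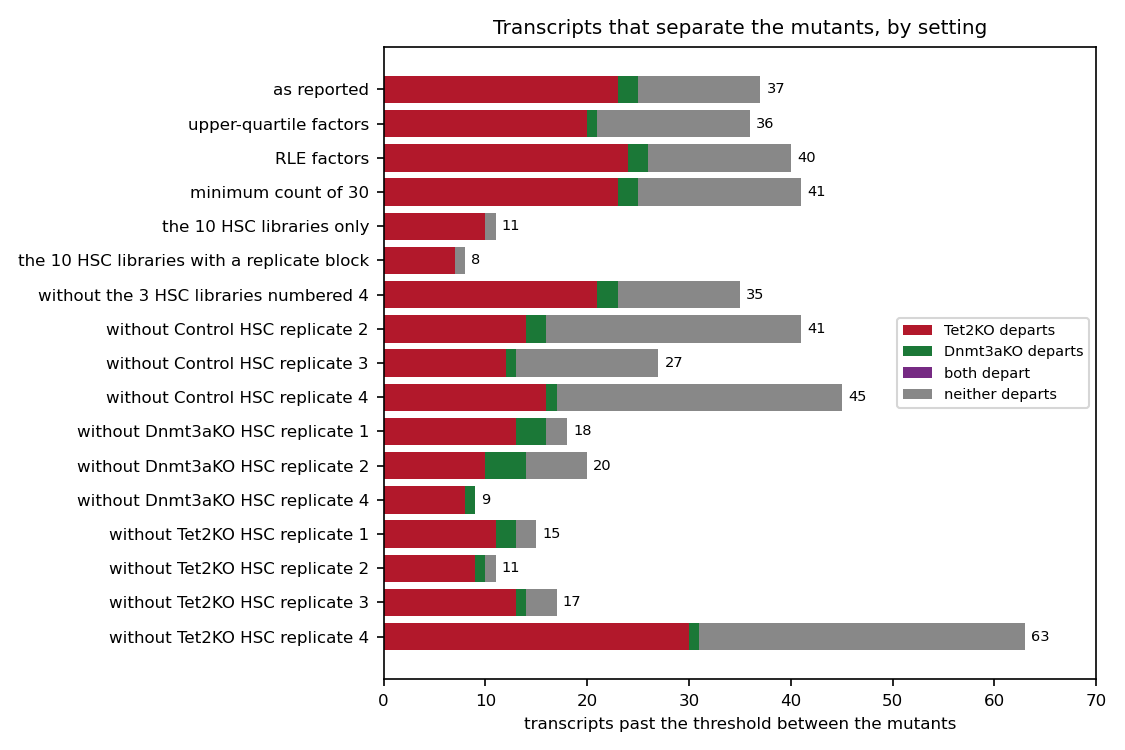
Number of transcripts past the threshold between the mutants for each setting of the analysis, split by which mutant departed from Control HSCs; 2 settings with 552 (DESeq2) and 752 (no filter on low counts) transcripts are left out of the plot for scale. Red, Tet2KO departing, is the longest part of each bar drawn except those without a Control replicate and without Tet2KO replicate 4, where grey, neither departing, is longer.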

How the data were processed

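RNA was measured in sorted HSCs and RPs with a low-input RNA kit, per the labels' protocols. The authors deposited a table of whole-number read counts for 138835 transcripts, of which 58447 had no count in the libraries used. STAR 2.0.4, HTSeq 0.8.0 and the build mm10 are listed per the submitters' processing notes. How strand and reads shared by overlapping transcripts were treated is not given in the sources used here, so counts of overlapping transcripts are uncertain. Of 36 columns, 18 were used and 18 were not. The HSC columns used each matched a labelled sample, and the RP columns matched a group but no single sample. The 18 ATAC samples were not analysed here.

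The counts were fitted in R 4.3.3 with edgeR 4.0.16 (TMM scaling, glmQLFit and glmQLFTest), with group as the only term and all 18 libraries in the fit, so the groups share the estimate of spread. filterByExpr (minimum count 10, minimum total 15) kept 26820 transcripts, which held 98.92% of counts. P-values were adjusted by Benjamini and Hochberg over all of them. Standard errors were derived from the F statistic, intervals are at 95%, and the floor for a count of 0 is 3 counts over a group. The numbers in the RP column names are not those of the sample titles, so these libraries are lettered here in column order. Chi-square per degree of freedom was at least 22.0 for pairs of HSC libraries of a genotype and at least 9.07 for such RP pairs, so none agreed within sampling noise.

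The members and lists were chosen with earlier results of these data known. Identifiers were printed for 2 higher and 2 lower transcripts: in each direction the largest fold change where Tet2KO departed and where Dnmt3aKO departed, with a mean of at least 5 CPM in the higher group, and the next of the other class where one was empty. Planned gene lists were not used, since transcripts were not paired with genes. Alternatives were other scaling factors, DESeq2 1.42.0, other filters, fewer libraries in the fit, a replicate block and leaving out each library.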

Additional observations from a re-analysis of the deposited data

Results flagged for a closer look

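In 5 of 111 groups of 4 libraries, over the 37 transcripts that separate the mutants, the highest library stood far from the other 3 by Dixon's criterion at 95%. Chance gives about 1 in 20, or 5.55. The seventh higher transcript was at 21.76 CPM in Tet2KO HSC replicate 4 and at 6.66 to 7.47 CPM in the other Tet2KO HSC libraries. The nineteenth lower transcript was at 2.351 CPM in Tet2KO HSC replicate 1 and at 1.57 to 1.69 CPM in the others. ENSMUST00000079237.6 was at 40.73 CPM in Control RP b and at 17.3 to 19 CPM in the other Control RPs. The fourth lower transcript was at 2508 CPM in Tet2KO RP c and at 1382 to 1539 CPM in the other Tet2KO RPs. The twenty-second lower transcript was at 41.59 CPM in Tet2KO RP d and at 22.8 to 24 CPM in the others.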

How the results depend on the processing

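Over 587 values of the 37 transcripts under the alternatives, 328 kept their call, 259 lost it and 0 changed direction. Counts between the mutants, for Dnmt3aKO against Control, for Tet2KO against Control and for RPs were 37, 4, 53 and 36. They became 552, 174, 677 and 120 with DESeq2 and 752, 291, 1001 and 241 with no filter on low counts. The first 3 became 11, 0 and 15 with the 10 HSC libraries only. With only the 2 groups compared all 4 became 10, 0, 21 and 78, with 492 at an unadjusted p under 0.05 where the count was 0. Dnmt3aKO against Control gave 1 with upper-quartile factors and 7 with a minimum count of 30, and Tet2KO against Control gave 96 without the 3 libraries numbered 4. Leaving out 1 library gave 9 to 63, 1 to 5, 18 to 106 and 27 to 42.

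Departures of Tet2KO alone, Dnmt3aKO alone, neither and both (23, 2, 12 and 0) became 179, 62, 308 and 3 with DESeq2 and 265, 79, 385 and 23 with no filter. They were 10, 0, 1 and 0 with the 10 HSC libraries only, and Dnmt3aKO departed in 1 with upper-quartile factors. With an unadjusted p under 0.05 they were 25, 9, 0 and 3, and by lack of overlap with Control 25, 9, 2 and 1. Leaving out 1 library gave 8 to 30, 1 to 4, 0 to 32 and 0 to 0. The cause of these shifts was not tested.

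The replicate numbers were not taken as pairs: same-numbered Dnmt3aKO and Tet2KO libraries correlated in their deviations at 0.0993, 0.0532 and 0.229 for numbers 1, 2 and 4, and number 2 did not correlate best with its own. The libraries numbered 4 did move together, with 0.251 between Control and Dnmt3aKO and 0.200 between Control and Tet2KO. With a replicate block 8 transcripts separated the mutants, 0 separated Dnmt3aKO and 10 Tet2KO from Control (1181 had an unadjusted p under 0.05 for Dnmt3aKO), and Tet2KO departed in 7, Dnmt3aKO in 0 and neither in 1. For RPs a replicate block by column number, an alternative chosen after seeing the data, gave 45 calls, 27 of them among the 36, and called 15 of the 23. Libraries sharing column number 1, 3 or 5 correlated at -0.0535, 0.00372 and 0.0537. Transcripts with at most 3 counts over a group are limited by depth, and their ratios have wide counting intervals.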
